A study of Mus musculus with 16 samples.

Results

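Gm30692, Gm14097 and 4930544F09Rik are 3 noncoding genes of the mouse whose mean liver levels differed between diets among the 16 progeroid mice measured. They were chosen, with the results known, for small p-values of a diet against the control diet, and are 3 of the 54752 genes in the deposited count table. The choice used the measured values and had no stated threshold, so their differences from control are given as a description, without a test. Long noncoding RNAs are transcripts that are not translated into a known protein. Some act on the chromatin or the transcription of the gene next to them, others act elsewhere in the cell, and many have no known function. An antisense transcript is read from the strand opposite to another gene, and where the 2 overlap, the counting of reads decides which gene is given a read. No function is given for any of the 3 genes in the annotation used.

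Bulk liver RNA was sequenced from 16 male mice of the genotype Ercc1 d/-, F1 hybrids written as C57BL6J/FVBN, which carry 1 truncated and 1 null allele of a DNA repair endonuclease subunit and age prematurely. All animals, controls included, had this genotype, ate AIN93G synthetic pellets until 8 weeks of age and were sampled at 11 weeks. The high-protein diet held about 194% of the standard protein and 70% of the carbohydrate, the low-protein diet 70% of the protein and about 112% of the carbohydrate, and the low-fat diet 70% of the fat and about 112% of the carbohydrate. The control diet was AIN93G throughout, the diets were equal in calories, and each diet had 4 animals. Nothing in the labels says how litters or cages were shared, so the p-values here cover only the spread among these animals, which may be partly technical.

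Gm30692 (ENSMUSG00000109141.1) is a long intergenic noncoding RNA gene on chromosome 8, chr8:24412179-24416937 on the plus strand of GRCm38, with 5 exons and 801 exonic bases, and no other gene overlaps it. Gm14097 (ENSMUSG00000084839.1) lies at chr2:132694432-132698523 on the minus strand, with 2 exons and 470 exonic bases. It runs antisense to Shld1, and its exon 1 of 48 bases is also part of a Shld1 exon on the other strand. 4930544F09Rik (ENSMUSG00000115062.1) lies at chr15:58984136-58988905 on the plus strand, with 2 exons of 431 and 1293 bases. It runs antisense to Mtss1, inside whose introns both exons lie, with 0 exonic bases shared.

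Parts of the 3 transcripts are shown, from GENCODE M21 on GRCm38, 5′ to 3′, because the sequence and its overlaps bear on which reads the counts hold. Capitals mark, in Gm30692, bases 89 to 210, the median extent of matches to other transcripts; in Gm14097, exon 1, which Shld1 shares; and in 4930544F09Rik, the first 60 bases of exon 2 after the splice junction.
Gm30692 bases 1 to 240: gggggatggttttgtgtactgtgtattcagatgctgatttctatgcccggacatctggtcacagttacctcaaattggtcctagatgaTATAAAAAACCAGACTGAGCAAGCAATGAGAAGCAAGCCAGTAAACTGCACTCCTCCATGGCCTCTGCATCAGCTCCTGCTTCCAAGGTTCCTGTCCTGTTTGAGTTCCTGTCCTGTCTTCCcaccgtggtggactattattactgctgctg
Gm14097 bases 1 to 240: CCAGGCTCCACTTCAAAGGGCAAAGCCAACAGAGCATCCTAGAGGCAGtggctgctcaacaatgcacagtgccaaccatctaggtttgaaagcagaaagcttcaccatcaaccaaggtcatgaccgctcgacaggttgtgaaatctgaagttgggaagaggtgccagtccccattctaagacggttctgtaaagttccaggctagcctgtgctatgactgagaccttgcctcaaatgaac
4930544F09Rik bases 372 to 491: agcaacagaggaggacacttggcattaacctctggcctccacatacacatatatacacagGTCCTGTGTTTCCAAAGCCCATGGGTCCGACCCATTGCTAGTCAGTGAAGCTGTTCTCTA

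A search of each whole transcript against all GENCODE M21 transcripts (blastn 2.17.0+, expect value of at most 1e-10) found Gm30692 to match transcripts of 569 other genes, with 70.7% to 91.4% identity over at most 160 bases. All of these matches lay within bases 2 to 244 of 801. Gm14097 matched 1 other gene, Shld1, over 48 identical bases. 4930544F09Rik matched 0 other genes. How the authors counted reads that fit several places is not given in the sources used here, so the counts of the first 244 bases of Gm30692 are uncertain.

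The libraries held 35243594 to 112789127 counts, with low-fat replicate 2 the deepest. Of 454 genes whose exonic bases all lie inside exons of genes on the other strand, 1 had any count, and it had 12 over 16 libraries. Counting without regard to strand, which drops reads that 2 genes share, gives such zeros. Reads from Shld1 or Mtss1 RNA that lie in exons of the antisense genes outside shared bases would then be counted for the antisense gene, and the strands cannot be told apart. Liver markers were at 74400 to 154000 CPM (counts scaled to library size, with TMM factors) in every library. Kidney transcripts, 20 markers, were at 98 to 1640 CPM in high-protein, 745 to 1330 CPM in low-protein, 1130 to 3060 CPM in low-fat and 164 to 4720 CPM in control libraries, with 12 of the 20 at 0 in 1 high-protein library. Control replicate 4 stood apart, with a standard deviation over genes of 1.29 log2 units from the other controls, against 0.433 to 1.01 for each of the other 15 libraries and its own diet mates.

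Gm30692 was lowest on the high-protein diet. Its level was 0.276, 0.106, 0.325 and 0.216 CPM in high-protein replicates 1 to 4, from 13, 4, 12 and 8 reads. In low-protein livers it was 0.994, 0.507, 1.13 and 0.795 CPM, in low-fat livers 2.09, 1.83, 0.815 and 0.794 CPM, and in control livers 2.76, 0.701, 0.865 and 1.26 CPM. All 4 high-protein livers lay below every liver of the other diets, while low-protein, low-fat and control livers overlapped. The means were 0.231 ± 0.0944 CPM with high protein, 0.856 ± 0.271 CPM with low protein, 1.38 ± 0.675 CPM with low fat and 1.4 ± 0.938 CPM in control (SD, n = 4 each). The fitted log2 fold change against control was -2.57 (SE 0.52) with high protein, or 5.95-fold lower. It was -0.70 (SE 0.47) with low protein and 0.00 (SE 0.47) with low fat. The p-value with high protein was the smallest of all 17833 genes tested in that comparison, which the choice of genes favoured. Without control replicate 1, the highest library of this gene, the 3 differences were -1.99, -0.13 and 0.55. In order of the mean level, low fat and control were within 1 SD of each other and so were low protein and low fat, and the step between high protein and low protein was the one without overlap.

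Gm14097 was the most abundant of the 3 genes. Per kilobase of exon its mean level in control was 51.8 CPM, against 1.74 CPM for Gm30692 and 0.481 CPM for 4930544F09Rik. Its level was 22.9, 28.8, 13.2 and 36.2 CPM in high-protein livers, 7.67, 7.69, 10.2 and 12.5 CPM in low-protein livers, 5.29, 3.79, 5.59 and 9.87 CPM in low-fat livers and 6.94, 26.8, 16.2 and 47.4 CPM in control livers. The controls spanned both the high-protein and the low-protein range, whereas every high-protein liver lay above every low-protein and low-fat liver. The means were 25.3 ± 9.72 CPM with high protein, 9.5 ± 2.3 CPM with low protein, 6.13 ± 2.61 CPM with low fat and 24.3 ± 17.4 CPM in control (SD, n = 4 each). Against control the log2 fold change was 0.06 (SE 0.46) with high protein, -1.36 (SE 0.47) with low protein and -1.99 (SE 0.48) with low fat. The value for low fat had rank 7 by p-value among all genes of its comparison, which the choice of genes favoured. Without control replicate 4, the highest library of this gene, the differences were 0.59, -0.83 and -1.48. The difference with high protein was near 0 and changed sign with the library left out, down to -0.24 without control replicate 1.

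4930544F09Rik was scarce in all libraries and highest in control. Its level was 0.553, 0.185, 0.244 and 0.567 CPM in high-protein livers, 0.105, 0.286, 0.136 and 0.219 CPM in low-protein livers, 0.0782, 0.092, 0.303 and 0.185 CPM in low-fat livers and 0.581, 0.757, 0.846 and 1.14 CPM in control livers. Each of the 12 livers on an altered diet lay below each control liver, and the altered diets overlapped with one another. The narrowest gap was between high-protein replicate 4, at 0.567 CPM from 21 reads, and control replicate 1, at 0.581 CPM from 20 reads. Low-protein livers held 4, 13, 6 and 8 reads of this gene, and low-fat livers 3, 11, 13 and 7. The means were 0.387 ± 0.201 CPM with high protein, 0.186 ± 0.0824 CPM with low protein, 0.165 ± 0.104 CPM with low fat and 0.83 ± 0.232 CPM in control (SD, n = 4 each). The log2 fold change was -1.09 (SE 0.48) with high protein, -2.13 (SE 0.51) with low protein and -2.35 (SE 0.51) with low fat. These had rank 1 by p-value for low fat and rank 10 for low protein, which the choice of genes favoured. The 3 comparisons share the same 4 control livers.

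**Figure D1:**
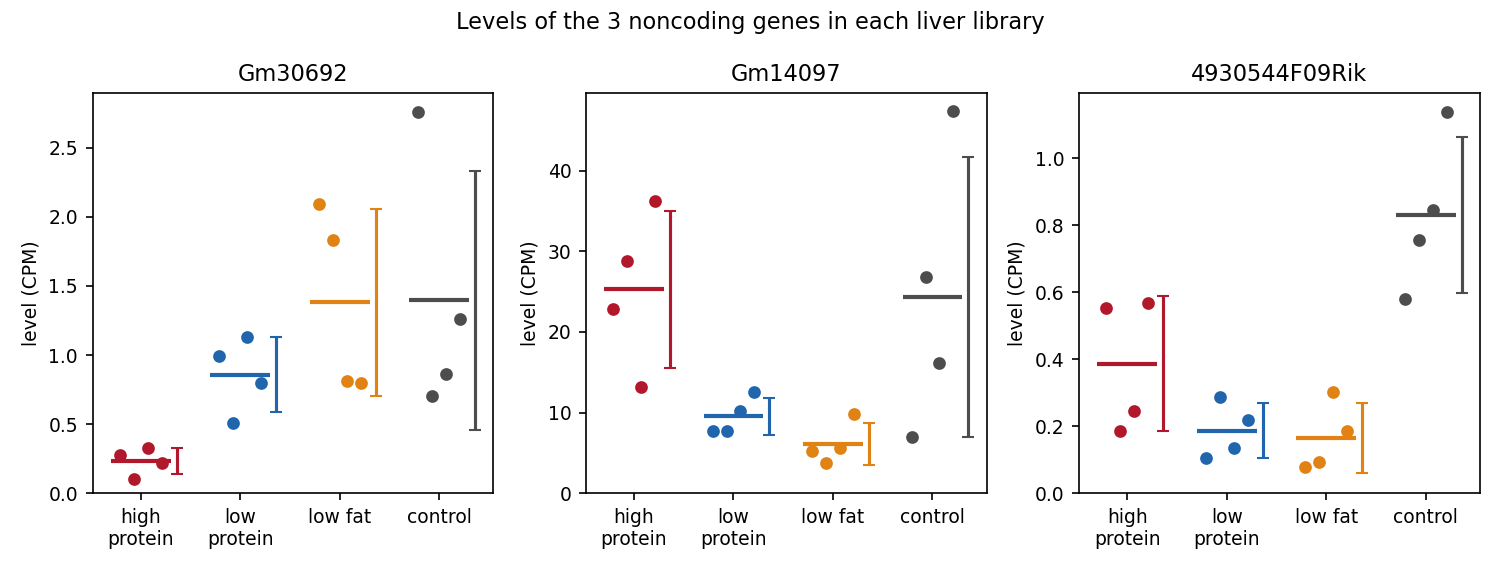
Levels in CPM (vertical axes, each from 0) of the 3 genes in the 16 libraries, grouped by diet, with a point for each library, a line at the mean and a bar of 1 SD (n = 4). Gm30692 was lowest with high protein, Gm14097 was lower with low protein and low fat than with high protein, and 4930544F09Rik was highest in control, at 0.581 CPM or more.

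After adjustment over all genes, edgeR's quasi-likelihood test called 0 of the 17833 genes (0%) in any of the 6 comparisons at 0.05. At an unadjusted p under 0.05 it gave 1105 genes (6.2%) between high protein and control, 1246 (6.99%) between low protein and control and 1628 (9.13%) between low fat and control. Libraries that did not overlap and lay below control were found for 0.841% of all genes on the high-protein diet, 0.869% on the low-protein diet and 1.32% on the low-fat diet. Of the 3 chosen genes, 2, 1 and 1 did so, which the choice itself favoured. DESeq2, run as an alternative, called 1, 10 and 4 genes in these comparisons. Its call for high protein was Gm30692, and its calls for low fat included Gm14097 and 4930544F09Rik. The choice of genes favoured these calls as well, so they are no test of the 3 genes.

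Differences between altered diets do not compare with control means, but their livers also served in the choice of genes, so they are not independent of it. Their errors and p-values come from the fit of all 16 libraries and so include the spread of the controls. With only the compared diets fitted, edgeR called 15 genes between high protein and low fat, where Gm30692 had an adjusted p of 0.0849 and Gm14097 of 0.106. Gm30692 differed by -1.87 log2 units (SE 0.52) between high and low protein and by -2.57 (SE 0.52) between high protein and low fat. The edgeR adjusted p was 0.899 and 0.27 in that order. Gm14097 differed by 1.41 (SE 0.47, edgeR adjusted p = 0.948) between high and low protein and by 2.05 (SE 0.48, edgeR adjusted p = 0.356) between high protein and low fat. 4930544F09Rik differed by 1.04 (SE 0.51, edgeR adjusted p = 0.966) and 1.26 (SE 0.51, edgeR adjusted p = 0.535) in the same comparisons. Low fat against low protein gave 0.69 for Gm30692, -0.64 for Gm14097 and -0.22 for 4930544F09Rik, each with an edgeR adjusted p of 1.

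Non-overlap with high protein below was found for Gm30692 in both comparisons, against 3.47% of all genes below low protein and 3.99% below low fat. Non-overlap with high protein above was found for Gm14097 in both, against 3.15% of all genes above low protein and 4.23% above low fat. edgeR called 0% of genes in these comparisons after adjustment, with 905 genes (5.07%) at an unadjusted p under 0.05 between high and low protein, 1600 (8.97%) between high protein and low fat and 420 (2.36%) between low fat and low protein. DESeq2 called 23, 81 and 0 genes. Between high protein and low fat its calls included Gm30692 (adjusted p = 0.00186) and Gm14097 (adjusted p = 0.0053). The same livers served in the choice of genes, which favoured these calls and the non-overlap, so neither is a test of the 3 genes.

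**Figure D2:**
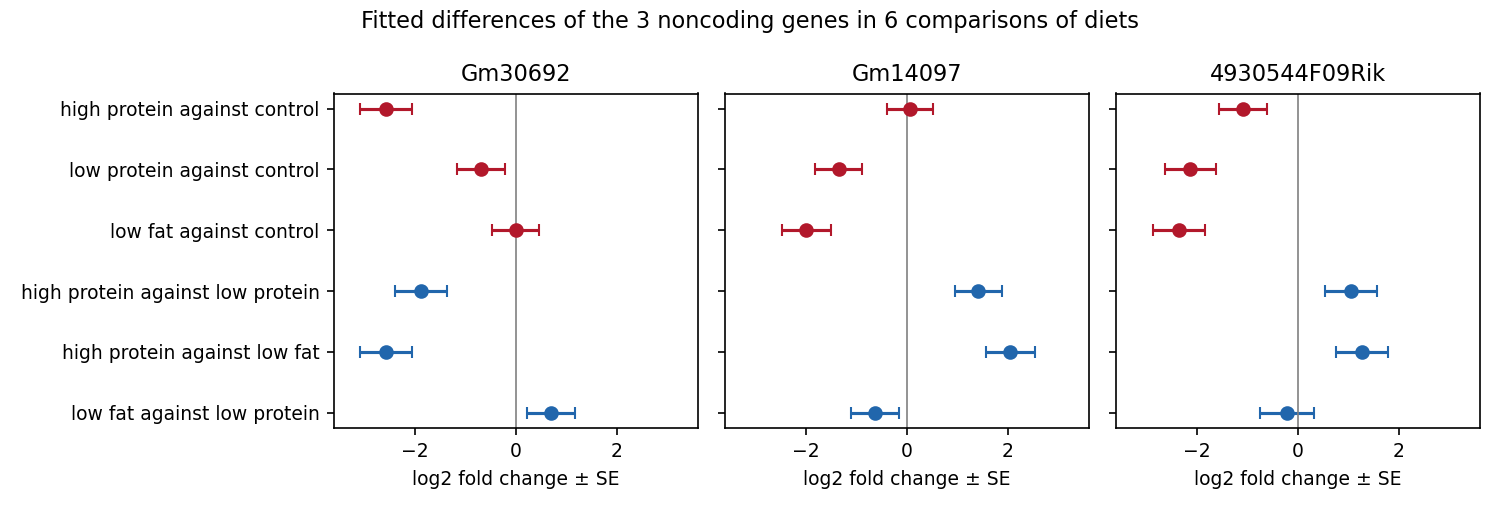
Fitted log2 fold change (horizontal axis) with its SE for each of the 6 comparisons of diets (rows), with the comparisons against control in red and those between altered diets in blue. Gm30692 was at -2.57 in high protein against both control and low fat, and 4930544F09Rik was below 0 in all comparisons with control.

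The gene neighbourhoods were read from the table's own coordinates, within 250 kb on either side. Gm30692 had 10 neighbours, of which 4 passed the low-count filter and 4 had no read in any library. Gm14097 had 17 neighbours, of which 8 passed, and 4930544F09Rik had 12, of which 7 passed. Of the 19 that passed, edgeR called 0 after adjustment in any of the 6 comparisons. At an unadjusted p under 0.05 there were 0 neighbours with high protein against control, 3 with low protein (15.8%, against 6.99% of all genes) and 4 with low fat (21.1%, against 9.13% of all genes). All of these were lower than in control. Between high protein and low fat 1 neighbour was higher (5.26%, against 8.97% of all genes), and in the other comparisons there were 0. Without control replicate 4 the 3 counts against control were 1, 0 and 2 of 18, in the same order. The shares of all genes without that library are not given here, so these counts have no background beside them. The median log2 fold change of the 19 against control was -0.21, -0.34 and -0.17 with high protein, low protein and low fat, beside -0.06, -0.04 and -0.02 over all genes.

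Around Gm14097, the gene whose level followed it most closely was Gpcpd1, which encodes a phosphodiesterase that splits glycerophosphocholine. It lies 106.7 kb away on the same strand, at chr2:132529082-132587729. Its level was 395, 338, 255 and 591 CPM in high-protein livers, 151, 171, 162 and 247 CPM in low-protein livers, 162, 115, 121 and 221 CPM in low-fat livers and 165, 513, 234 and 1810 CPM in control livers. The 4 controls ranked in the same order for Gpcpd1 as for Gm14097, and every high-protein liver lay above every low-protein and low-fat liver. Over the 16 livers, Spearman's rho of the pair was 0.929 (permutation p = 1e-05, the smallest that 100000 permutations can give, adjusted 0.00021 over 21 pairs of gene and neighbour). Such free permutations break up the diets, whose differences were used to choose Gm14097, so livers were also permuted only within their diet, a test added after seeing the data (permutation p = 0.00055, adjusted 0.0058). Pearson's r on log2 CPM was 0.918 (permutation p = 1e-05, adjusted 0.0001). It was 0.938 without the livers farthest from the median of Gm14097, control replicate 4 and high-protein replicate 4. Of 17832 other genes, Gpcpd1 had rank 6 by rho with Gm14097.

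Gpcpd1 differed from control by -2.14 log2 units (SE 0.59, edgeR unadjusted p = 0.00277, adjusted p = 0.539) with low fat and by -1.90 (SE 0.59, edgeR unadjusted p = 0.00597, adjusted p = 0.687) with low protein. Without control replicate 4 these were -1.01 and -0.75. Between high protein and low fat it differed by 1.35 (SE 0.58, edgeR unadjusted p = 0.0345, adjusted p = 0.537), with no overlap of livers. Neither its own differences nor those of any other neighbour passed the adjustment.

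Shld1 encodes a subunit of shieldin, a complex that limits the trimming of broken DNA ends. It overlaps Gm14097, at chr2:132686931-132751055 on the plus strand. Its level was 7.89, 6.06, 6.52 and 11.1 CPM in high-protein livers, 5.97, 4.96, 8.68 and 6.41 CPM in low-protein livers, 4.15, 3.83, 6.61 and 5.9 CPM in low-fat livers and 6.27, 9.72, 7.16 and 20.6 CPM in control livers. All diets overlapped, with 3 of 4 low-fat livers below all controls. Its rho with Gm14097 was 0.753 (permutation p = 0.001, adjusted 0.0073), with rank 305 among 17832 other genes, and r was 0.815. With livers permuted within diets it did not pass the adjustment (permutation p = 0.019, adjusted 0.14). Shld1 differed from control by -1.10 log2 units (SE 0.34, edgeR unadjusted p = 0.0055, adjusted p = 0.539) with low fat and by -0.75 (SE 0.34, edgeR unadjusted p = 0.042, adjusted p = 0.687) with low protein. Without control replicate 4 these were -0.62 and -0.26. Per kilobase Shld1 was at 5.17 CPM in control, below the 51.8 CPM of Gm14097. How many Gm14097 reads came from unspliced or antisense RNA of Shld1 was not tested.

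The other neighbours of Gm14097 that passed were Rpl23a-ps4, a ribosomal protein pseudogene, Trmt6, a subunit of a tRNA methyltransferase, Mcm8, a helicase of homologous recombination, Crls1, the cardiolipin synthase, Lrrn4, a leucine-rich repeat protein, and Fermt1, an activator of integrins. Their rho with Gm14097 ran from -0.135 for Fermt1 to 0.253 for Mcm8, and 0 of the 6 passed the adjustment. Trmt6 was nearly level, at 19.4 ± 1.02 CPM with high protein, 19.1 ± 0.782 CPM with low protein, 19.9 ± 2.59 CPM with low fat and 20.8 ± 3.12 CPM in control (SD, n = 4 each).

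**Figure D3:**
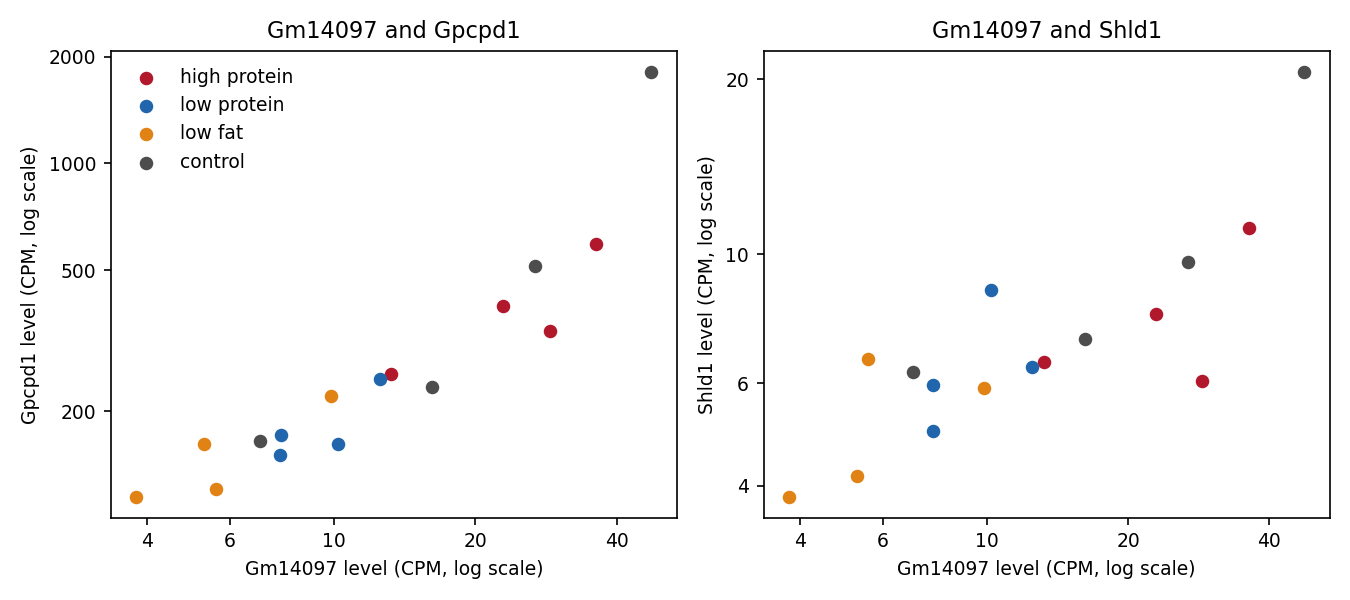
Level of Gpcpd1 (left) and of Shld1 (right) against the level of Gm14097 in the 16 libraries, all axes in CPM on a log scale, coloured by diet. Gpcpd1 followed Gm14097 with a rho of 0.929 and Shld1 with 0.753, and control replicate 4 was the highest library in all 3 genes.

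Around Gm30692, the neighbours that passed were Gm26714, an antisense RNA gene 5.5 kb away, Tcim, a small regulator of Wnt signalling, 20.2 kb away on the other strand, Gm44620, a transcript still to be experimentally checked according to its biotype, 30.2 kb away on the same strand, and Ido2, a tryptophan dioxygenase, 115.0 kb away. Gm44620 was at 0.128, 0.106, 0.244 and 0.108 CPM in high-protein livers, 0.392, 0.132, 0.61 and 0.137 CPM in low-protein livers, 1.1, 0.284, 0.279 and 0.37 CPM in low-fat livers and 0.958, 0, 0.132 and 0.767 CPM in control livers. The 0 in control replicate 2 allows a level of up to 0.084 CPM (3 counts), and intervals of this kind cover counting error only. Livers with more Gm30692 had more Gm44620, with a rho of 0.841 (permutation p = 9e-05, adjusted 0.00094) and r of 0.646 (permutation p = 0.0071, adjusted 0.05). With livers permuted within diets the rho had a permutation p of 0.00036 (adjusted 0.0058). Pearson's r was 0.577 without high-protein replicate 2 and control replicate 1. Both genes gave few reads, with 4 to 9 for Gm44620 in high-protein livers, and in such counts the size of a correlation is imprecise.

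The other neighbours of Gm30692 had a rho of 0.353 for Gm26714, 0.335 for Ido2 and 0.232 for Tcim, with adjusted permutation p-values of 0.48 or more. Ido2, the most abundant of them, was at 56.9 ± 14.3 CPM with high protein, 72.3 ± 9.33 CPM with low protein, 69.1 ± 12.6 CPM with low fat and 58.1 ± 30.7 CPM in control (SD, n = 4 each). Tcim differed from control by -0.92 log2 units with low protein (SE 0.43, edgeR unadjusted p = 0.0484, adjusted p = 0.687), and by -0.21 without control replicate 4. Toward lower coordinates 0 of the 3 neighbours within 250 kb passed the filter. The nearest gene there that did was Sfrp1, a secreted inhibitor of Wnt signalling, 962.5 kb away, with a rho of -0.053.

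Around 4930544F09Rik the correlation with its level passed the adjustment for 0 of the 7 neighbours. Mtss1, its host, encodes a scaffold of actin and membrane, and lies at chr15:58941234-59082005 on the minus strand. Mtss1 was at 204, 175, 156 and 171 CPM in high-protein livers, 107, 135, 157 and 196 CPM in low-protein livers, 118, 142, 87.7 and 147 CPM in low-fat livers and 138, 187, 125 and 298 CPM in control livers, and all diets but high protein and low fat overlapped. The rho of the pair was 0.344 (permutation p = 0.19, adjusted 0.48) and r was 0.479. Mtss1 differed from control by -0.59 log2 units with low fat (SE 0.25, edgeR unadjusted p = 0.0327, adjusted p = 0.539), and by -0.31 without control replicate 4. The host was lower by less than the antisense gene, whose difference was -2.35. The antisense gene was chosen for its difference from control, which favours such a gap, and this pair of differences was not compared by a test. Per kilobase Mtss1 was at 16.5 CPM in control, above the 0.481 CPM of 4930544F09Rik, whose exons lie inside its introns. How many 4930544F09Rik reads came from unspliced RNA of Mtss1 was not tested.

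Rnf139, a ubiquitin ligase of the endoplasmic reticulum, differed from control by -0.31 with low fat (SE 0.13, edgeR unadjusted p = 0.0265, adjusted p = 0.539). The remaining neighbours of 4930544F09Rik that passed were Ndufb9, a subunit of respiratory complex I, Tatdn1, a putative nuclease, Tmem65, a mitochondrial membrane protein, Trmt12, an enzyme of tRNA modification, and Gm20712. With Rnf139 their rho ran from -0.332 for Trmt12 to 0.353 for Rnf139, and 0 of the 6 passed the adjustment. Toward higher coordinates 0 neighbours passed within 250 kb. The nearest gene there that did was Sqle, squalene epoxidase of cholesterol synthesis, 326.2 kb away, with a rho of 0.091.

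**Figure D4:**
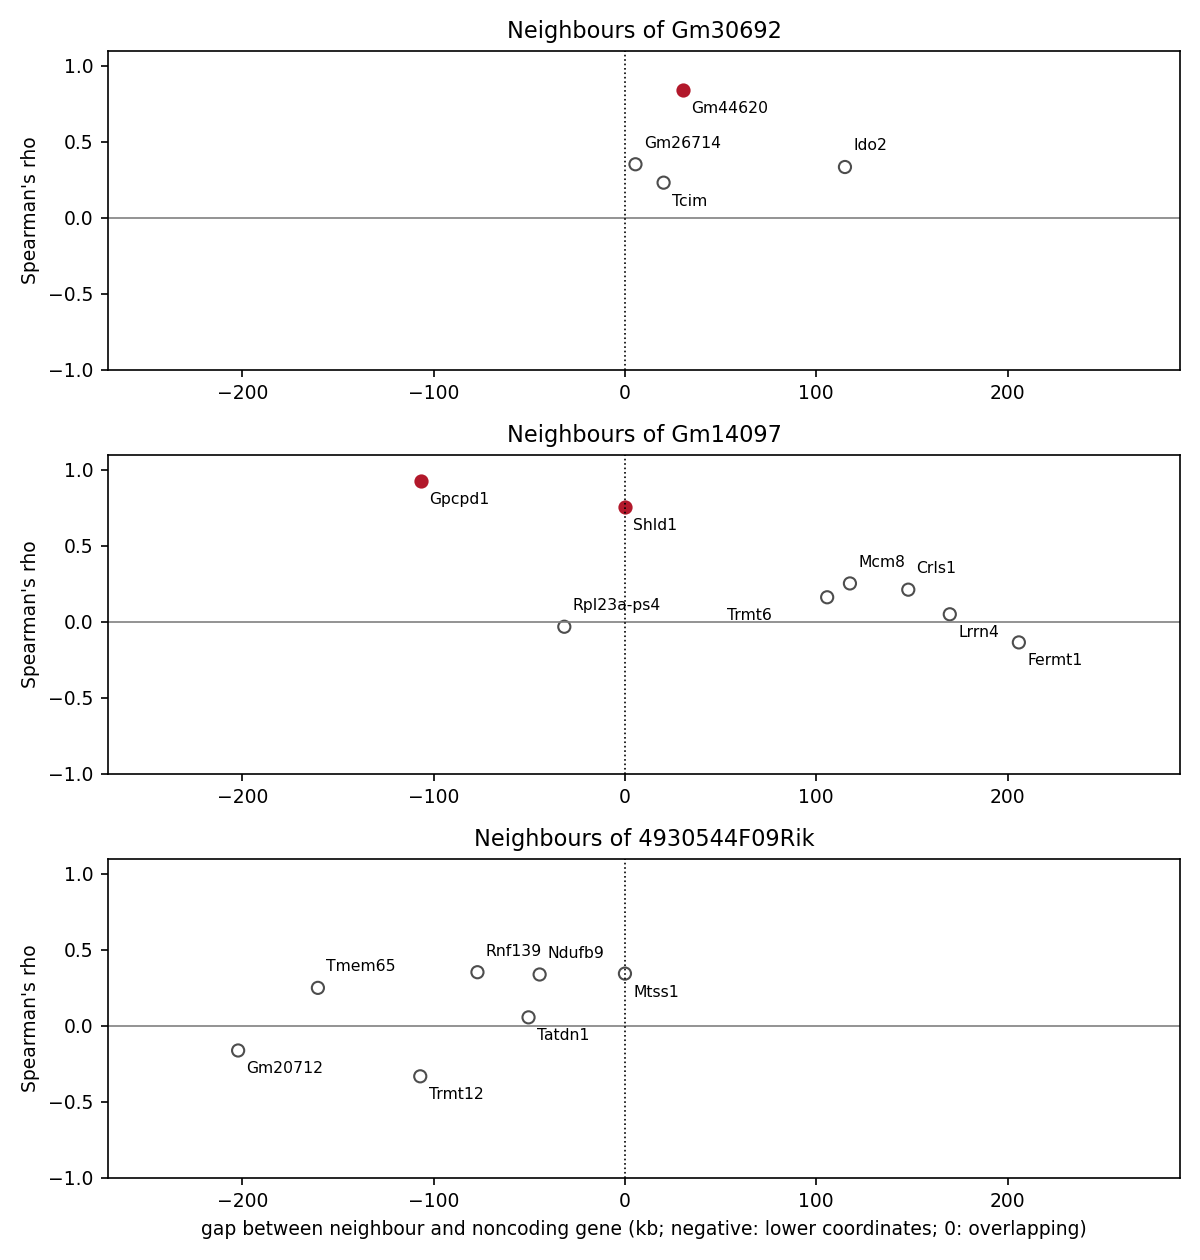
Spearman's rho over 16 libraries of each neighbour with its noncoding gene (vertical axes) against the gap between the genes in kb (horizontal axis, 0 where they overlap). Filled points passed the free permutation test after adjustment over 21 pairs (Gm44620, Gpcpd1 and Shld1, of which Shld1 did not pass with livers permuted within diets), and open points did not.

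The 3 genes did not move as a set. Over the 16 livers rho was 0.612 between Gm14097 and 4930544F09Rik, -0.597 between Gm30692 and Gm14097 and -0.179 between Gm30692 and 4930544F09Rik, given as a description because all 3 were chosen for their diet differences. Summed markers of Kupffer cells, the liver macrophages, had a rho of -0.603 with 4930544F09Rik. It was picked as the largest in size of any marker sum with any of the 3 genes. B cell markers had a rho of 0.432 with Gm30692, -0.535 with Gm14097 and -0.488 with 4930544F09Rik. All 8 Kupffer cell markers were detected in every library, at 174 to 235 CPM in high-protein, 184 to 272 CPM in low-protein, 197 to 321 CPM in low-fat and 149 to 205 CPM in control livers. The range was lowest in control, so the choice of 4930544F09Rik, highest in control, favours a negative rho with these markers. Their part in the level of 4930544F09Rik was not tested. In bulk tissue fewer cells of a type and less RNA per cell cannot be told apart. The kidney markers had a rho of 0.047 with Gm30692, -0.376 with Gm14097 and -0.338 with 4930544F09Rik, and total counts had 0.056, -0.074 and -0.032.

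The genes whose pattern over the 16 livers was most like Gm30692 were Mthfd2, a mitochondrial enzyme of folate metabolism (rho 0.865), Mkln1, a subunit of a ubiquitin ligase (0.856), Tars, the threonyl-tRNA synthetase (0.853), the noncoding gene Gm34654 (0.847) and Slc11a2, an iron transporter (0.844). These correlations are descriptions without a test, picked as the highest of 17832, and 18 genes had a rho of at least 0.8. Tars was at 44.3 to 79.7 CPM with high protein, 86.3 to 114.0 CPM with low protein, 78.8 to 151.0 CPM with low fat and 66.4 to 146.0 CPM in control. Gm34654 was at 0.669 ± 0.459 CPM with high protein, 2.51 ± 1.13 CPM with low protein, 4.43 ± 3.43 CPM with low fat and 2.98 ± 1.55 CPM in control (SD, n = 4 each). Both had their lowest mean with high protein and their highest with low fat. Without control replicate 4, 0 of these 5 genes were among the 5 most like Gm30692, although each kept a high rho, such as 0.85 for Mthfd2.

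Mthfd2 and Tars are known targets of ATF4, the transcription factor that cells make more of when amino acids run short, which binds sites that include the letters TGATGNAA. This motif was chosen after the like genes were seen. Searched on both strands with N as any base, it was in 3.97% of the 32851 RefSeq promoters of GRCm38.p6, each of 300 bases. It was in the promoter of Tars and in 1 of 2 listed for Gm34654, and in neither that of Mthfd2 nor that of Mkln1. Slc11a2 had no promoter listed. The promoters listed for the genes most like Gm14097 and 4930544F09Rik did not hold the motif. A match is a description of letters and shows no binding, and the part of ATF4 in the level of Gm30692 was not tested. The promoter of Tars, chr15:11399609-11399908 on the minus strand, is shown 5′ to 3′ with the motif, found on its reverse strand, in capitals.
Tars: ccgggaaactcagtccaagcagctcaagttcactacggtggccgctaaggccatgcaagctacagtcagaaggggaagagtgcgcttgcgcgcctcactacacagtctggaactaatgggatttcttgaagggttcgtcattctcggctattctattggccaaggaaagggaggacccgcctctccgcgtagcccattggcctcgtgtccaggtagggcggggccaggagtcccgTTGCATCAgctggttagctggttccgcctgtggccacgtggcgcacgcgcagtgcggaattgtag

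The genes most like Gm14097 were Upp2, a uridine phosphorylase of liver (rho 0.959), Adssl1, an adenylosuccinate synthetase (0.956), Zfp385b, a zinc finger protein (0.95), the noncoding gene Gm45609 (0.944) and Fam53b (0.938). In all, 161 genes had a rho of at least 0.8 with Gm14097, against 6 for 4930544F09Rik. Gm14097 had 203 to 1543 reads per library and 4930544F09Rik 3 to 45, so the 2 numbers of genes are not alike in precision. The part of read depth in them was not tested. Upp2 was at 823 ± 241 CPM with high protein, 299 ± 200 CPM with low protein, 220 ± 173 CPM with low fat and 637 ± 326 CPM in control (SD, n = 4 each). Adssl1 was at 33.7 ± 10.6 CPM with high protein, 22.6 ± 1.54 CPM with low protein, 20.3 ± 1.5 CPM with low fat and 29.2 ± 7.24 CPM in control. Both followed the order of the diets seen in Gm14097, with high protein highest and low fat lowest, which their choice by rho with Gm14097 favours. All 5 genes were also the 5 most like Gm14097 without control replicate 4.

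The genes most like 4930544F09Rik were Tamm41, a mitochondrial enzyme that makes a precursor of cardiolipin (rho 0.941), Tmem87b, a membrane protein (0.865), Enpp1, a phosphodiesterase that cleaves extracellular nucleotides (0.847), Fbxl14, a ubiquitin ligase subunit (0.829), and Gm13436 (0.803). Tamm41 was at 3.92 ± 0.485 CPM with high protein, 3.22 ± 0.219 CPM with low protein, 2.89 ± 0.547 CPM with low fat and 4.33 ± 0.393 CPM in control (SD, n = 4 each). Enpp1 was at 26.2 ± 3.55 CPM with high protein, 21.8 ± 1.52 CPM with low protein, 20.3 ± 2.71 CPM with low fat and 27.2 ± 3.1 CPM in control. Relative to their means, both varied less between livers than 4930544F09Rik did.

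**Figure D5:**
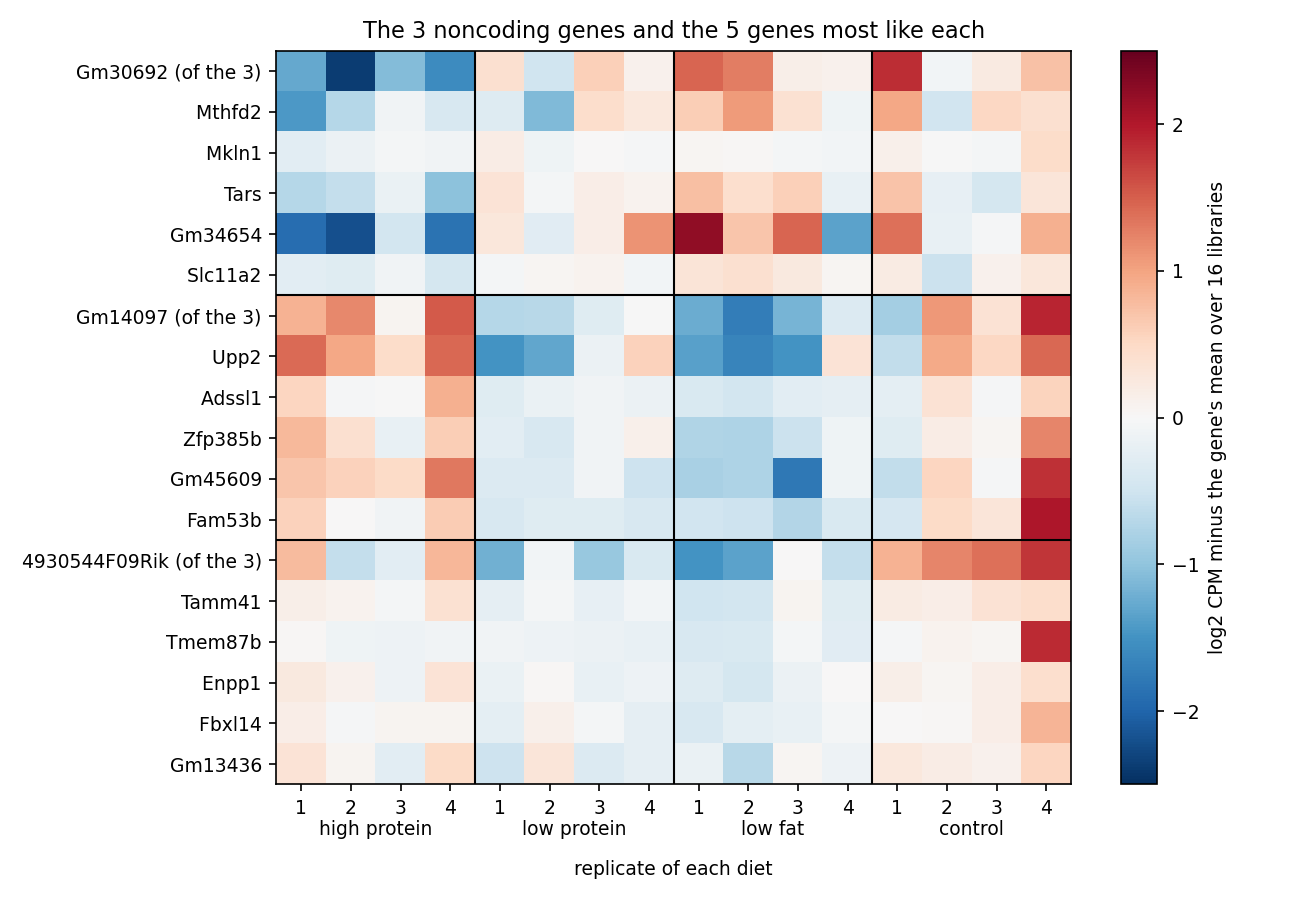
Deviation of log2 CPM from each gene's mean over 16 libraries (colour) for the 3 noncoding genes and the 5 genes most like each (rows), by diet and replicate (columns). The blocks show high protein low for Gm30692, high protein and control replicate 4 high for Gm14097, and control high for 4930544F09Rik.

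Of 1695 noncoding genes tested, edgeR called 0 after adjustment, and 87 had an unadjusted p under 0.05 on the high-protein diet, 140 on the low-protein diet and 143 on the low-fat diet, all against control. That was 5.13%, 8.26% and 8.44% of them, beside 6.2%, 6.99% and 9.13% of all genes. Of a list of 56 well-studied long noncoding RNAs, 53 were in the table and 45 were tested, and edgeR called 0 of them after adjustment. At an unadjusted p under 0.05 against control, 0 differed with high protein. With low protein 1 was higher and 3 lower (8.89%), and with low fat 1 was higher and 4 lower (11.1%). With high protein 7 were higher and 3 lower than with low fat (22.2%, against 8.97% of all genes). Against low protein 2 were higher and 3 lower with high protein (11.1%, against 5.07%), and 0 higher and 2 lower with low fat (4.44%, against 2.36%).

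Among the listed RNAs, Mir22hg is the host of a microRNA, Mir17hg the host of the miR-17 cluster and Lncpint an RNA induced by p53. The largest fitted differences from control in the list were, with high protein, Mir22hg at -1.02 log2 units, Mir17hg at -0.97 and Lncpint at -0.90. With low protein they were Lncpint at -1.47, Trp53cor1, another RNA induced by p53, at 1.42, and Gm15441, antisense to Txnip in liver, at -1.37. With low fat they were Gm15611 at 1.79, Trp53cor1 at 1.65 and Snhg5, a host of small nucleolar RNAs, at -1.28. Each had an edgeR adjusted p of 0.539 or more. Lncpint was at 1.46 ± 0.46 CPM with high protein, 0.988 ± 0.134 CPM with low protein, 1.18 ± 0.133 CPM with low fat and 2.75 ± 2.95 CPM in control (SD, n = 4 each), where the highest control held 7.12 CPM. Trp53cor1 was at 0.581 ± 0.298 CPM with high protein, 0.855 ± 0.238 CPM with low protein, 1.01 ± 0.946 CPM with low fat and 0.32 ± 0.25 CPM in control. Without control replicate 4 the difference was 0.57 for Mir22hg and 0.17 for Lncpint with high protein, both in the other direction. Without that library it was -0.22 for Mir17hg with high protein, -0.40 for Lncpint and -0.68 for Gm15441 with low protein, and -0.11 for Snhg5 with low fat.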

How the data were processed

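The authors deposited 1 table of raw read counts per gene for 16 liver libraries, with the position of each exon and the summed exon length. The build was GRCm38.p6 and the tools named were STAR 2.7.0f, Trimmomatic 0.39, edgeR 3.32.1, featureCounts and Subread 1.6.4, per the submitters' processing notes. What settings, strand and annotation release they used was not given in the sources used here. Of 54752 identifiers 53861 matched GENCODE M21 with their version, all at the same start and end, and 862 more were named by identifier without version. Groups were taken from the sample titles.

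Counts were analysed in edgeR 4.0.16 (R 4.3.3): filterByExpr (17833 genes), TMM factors, a quasi-likelihood fit of all 16 libraries with 4 diet means (12 residual degrees of freedom), 6 two-sided comparisons, and Benjamini-Hochberg adjustment over all genes at 0.05. CPM use TMM-scaled library sizes, and log2 CPM add a prior count of 2. Correlations used 100000 permutations of all livers and, added after seeing the data, of livers within diets. RefSeq GRCm38.p6 supplied promoters. The steps were tested on simulated data. Alternatives tried were DESeq2 1.42.0, upper-quartile and RLE factors, no filter, over 1 CPM in at least 4 libraries, only the compared diets, replicate numbers as a block, each library left out, windows of 100 and 1000 kb, and other correlation measures.

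The 3 genes and all lists were chosen with earlier results of these data known. The genes named were the 3, every neighbour past the filter, the 5 genes of highest rho with each, and, from a list of known noncoding RNAs, the 3 largest fitted differences of each diet against control. Replicates of a diet differed by more than sampling noise, as the chi-square divided by its degrees of freedom was at least 45.2.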

Additional observations from a re-analysis of the deposited data

Results flagged for a closer look

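Each of the 3 noncoding genes and 21 neighbours was examined in the 4 livers of each diet for a library set far apart from the other 3, by Dixon's test at 95%. Of 96 groups 7 stood out, all in neighbours, where chance gives about 1 in 20. Of these 7 groups 2 belonged to Gm44620, next to Gm30692. Gm44620 was at 1.1 CPM in low-fat replicate 1, against 0.279 to 0.37 CPM in the other low-fat livers, and at 0.244 CPM in high-protein replicate 3, against 0.106 to 0.128 CPM. Next to Gm14097, Crls1 was at 80.0 CPM in control replicate 4, against 23.1 to 26.9 CPM in the other controls. Fermt1 was at 0.383 CPM in high-protein replicate 1, against 1.93 to 2.08 CPM. That library held the fewest kidney transcripts, at 98 CPM. Control replicate 3, with the most, had the highest Fermt1, at 7.88 CPM, and the part of kidney transcripts in its level was not tested. Trmt6 was at 17.9 CPM in high-protein replicate 4, against 19.9 to 20.0 CPM. Sfrp1, the nearest tested gene on the far side of Gm30692, was at 14.3 CPM in control replicate 3, against 1.04 to 2.18 CPM, and that library also held the most kidney transcripts, at 4720 CPM, whose part in the level of Sfrp1 was not tested. Ndufb9, next to 4930544F09Rik, was at 99.4 CPM in high-protein replicate 4, against 67.0 to 70.8 CPM.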

How the results depend on the processing

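With edgeR, 0 genes were called in each of the 6 comparisons under RLE and upper-quartile factors, no filter, the filter at 1 CPM and the replicate block. DESeq2 called 1 gene between high protein and control, 10 between low protein and control, 4 between low fat and control, 23 between high and low protein and 81 between high protein and low fat. With only the compared diets, 15 genes were called between high protein and low fat. With 1 library left out, the number of genes called was 0 to 98 for low fat against control (98 without control replicate 3), 0 to 2 between high and low protein and 0 to 1 between high protein and low fat (2 and 1 without high-protein replicate 3), and 0 in the other comparisons. The number of neighbours called was 0 in each comparison under every alternative run, windows of 100 and 1000 kb included. Neighbours at an unadjusted p under 0.05 numbered 0 to 3 with high protein against control with 1 library left out (3 without control replicate 2, and 1 without high-protein replicate 1 or 2 or control replicate 1 or 4). Low protein against control gave 1 without low-protein replicate 2 or 4. High protein against low fat gave 0 without high-protein replicate 4 or low-fat replicate 3, 2 without high-protein replicate 2 or 3 and 3 without low-fat replicate 4, and high against low protein gave 1 without high-protein replicate 1. Against 0 as reported, high protein against control gave 2 without the filter and 1 with the block or DESeq2, and high against low protein gave 1 with each of these and with only the compared diets. Against 3, low protein gave 1 with upper-quartile factors or only the compared diets, and against 4, low fat gave 2 with only the compared diets. Against 1, high protein and low fat gave 2 with RLE factors, upper-quartile factors or the filter at 1 CPM, 3 without the filter or with DESeq2, 4 with the block or only the compared diets and 0 in the window of 100 kb, and against 0, low fat and low protein gave 2 with only the compared diets. In the window of 1000 kb, high protein, low protein and low fat against control gave 3, 6 and 7, and high protein gave 3 against low protein and 3 against low fat. The causes of these changes were not tested.

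The labels do not say that replicate numbers pair the livers. Deviations of same-numbered livers correlated by -0.201 to 0.301 between diets. Low fat and control came nearest to a pairing, with 0.258, 0.129, 0.301 and 0.071, where 5 of 8 livers correlated best with their own number, against 0 to 4 of 8 in the other comparisons. In no comparison were all 4 pairs over 0.1, so the replicate block is given here only, with 0 genes called in each comparison.

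Gm30692 in high protein against control lay between -2.79 and -1.99 log2 units over the alternatives, Gm14097 in low fat against control between -2.32 and -1.48, and 4930544F09Rik in low fat against control between -2.82 and -2.09. A filter of over 1 CPM left 4930544F09Rik out of the test. Signs turned for 4930544F09Rik in low fat against low protein without low-protein replicate 2 (0.07) or low-fat replicate 2 (0.03), in a range of -0.69 to 0.07 with 1 library left out. Gm14097 in high protein against control, 0.06 as reported, was -0.24 without control replicate 1, -0.15 and -0.01 without high-protein replicates 4 and 2, and -0.05 without control replicate 3. Gm30692 in low fat against control, 0.00 as reported, ran from -0.28 to 0.55, and in low protein against control from -0.92 to -0.13, the highest of each without control replicate 1. Signs also turned for Mir22hg (0.57, range -1.31 to 0.57) and Lncpint (0.17, range -1.19 to 0.17) in high protein against control without control replicate 4. With livers permuted within diets, Gm44620 and Gpcpd1 passed the adjustment and Shld1 did not (adjusted permutation p = 0.14). Of the 5 genes most like Gm30692, Gm14097 and 4930544F09Rik, 2, 2 and 3 were shared with Pearson's r and 0, 1 and 1 with deviations from the diet means. Depth limits Gm30692 in high-protein livers, where it had 4 to 13 reads, and 4930544F09Rik in all libraries, where it had 3 to 45 reads.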
